A study of Mus musculus with 2 samples.

Results

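The genes described here encode the building blocks of the cornified envelope, the keratin filament system and the desmosome. They were chosen from the gene symbols of the deposited tables: every symbol beginning with Lce or Sprr and a number, every keratin gene of the form Krt and a number, and Perp, Ppl, Evpl, Dsp, Jup and Pkp1 to Pkp4. The rule gave 90 of 20211 symbols, namely 20 late cornified envelope genes, 12 small proline-rich genes, 49 keratins, 6 desmosomal plaque genes, 2 envelope plakins and Perp. The group was picked on these same values, because Lce1 genes were low and Ppl was high in the Kai1-/- library, so the levels below are a description and no test was made on them.

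RNA was sequenced from primary perivascular cells (PCs) of the aorta of C57BL/6 mice, with 1 library from wild type (WT) cells and 1 from cells labelled Kai1 KO (Kai1-/-), both grown in DMEM with 10% FBS per the labels, whereas the study's methods give a higher serum concentration for primary cells. The study asked how loss of KAI1, a tetraspanin encoded by Cd82, changes the transcriptome of these cells. Adult mice of both sexes were used in the study. The sources used here do not give the sex of the animals behind each culture, the knockout allele, the number of animals, or whether they were pooled. Values are RPKM, that is, reads normalised for transcript length and for mapped reads, and 1 library per genotype leaves the difference without a replicate check.

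The targeted gene Cd82 measured 12.8 RPKM in WT PCs against 2.62 in Kai1-/- PCs, and the housekeeping gene Gapdh 4238 against 5997. The steps between low values corresponded to about 28800000 and 26300000 mapped reads, and the intervals given with each ratio are 95% intervals from the estimated reads, which cover counting error only. Of the 12 mural markers looked up, Acta2 stood at 3823 and 2580 RPKM, Tagln at 633 and 307, and Cnn1 at 120 and 49.2. Pdgfrb stood at 44.7 and 31.6 RPKM and Cspg4 at 15.4 and 8.27, Mcam at 4.90 and 0.264, and Myh11 at 2.96 and 0.346, while Kcnj8 stood at 0 and 0.791, Rgs5 at 0.063 and 0.233, and Abcc9 at 0.0411 and 0.0303. Of the 7 mural markers averaging 1 RPKM or more, 4 were more than 2-fold lower in Kai1-/- PCs and 0 higher, against 7.81% and 7.98% of all symbols. The 4 Y-linked genes looked up were above 0 in the WT library, from 0.480 to 6.56 RPKM, and 0 of 4 in the other, so that sex and genotype cannot be told apart.

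The cornified envelope is the protein shell that replaces the plasma membrane of a keratinocyte as it turns into dead skin surface. Transglutaminases crosslink small proteins such as the LCE and SPRR families onto a scaffold of envoplakin and periplakin, and the shell is anchored to keratin filaments and to desmosomes. Keratins form filaments only as pairs of a type I and a type II protein. Mesenchymal cells, among them perivascular cells, build their filaments mainly from vimentin and are not known for desmosomes, and most of these genes are best known from epithelia.

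The Lce1 genes that stood out in these libraries are close copies of each other. Lce1g and Lce1h lie 10876 bases apart on the minus strand of chromosome 3 (92554070 to 92556260 and 92567137 to 92568987, build NCBI37/mm9, GENCODE M1), with Lce1f and Lce1i as their outer neighbours and the coding sequence in a single exon. The first 90 coding bases of 4 Lce1 genes are shown because the reads of such copies can be hard to assign. They lie at chr3:92554832-92554921 (Lce1g), chr3:92567676-92567765 (Lce1h), chr3:92523181-92523270 (Lce1f) and chr3:92654382-92654471 (Lce1l). Capitals mark bases that differ from Lce1g at the same position.
Lce1g: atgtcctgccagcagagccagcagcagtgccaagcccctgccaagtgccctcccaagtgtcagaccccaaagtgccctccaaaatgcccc
Lce1h: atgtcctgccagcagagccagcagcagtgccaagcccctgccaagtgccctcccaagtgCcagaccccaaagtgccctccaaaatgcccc
Lce1f: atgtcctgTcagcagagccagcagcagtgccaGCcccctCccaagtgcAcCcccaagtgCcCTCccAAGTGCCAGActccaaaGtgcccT
Lce1l: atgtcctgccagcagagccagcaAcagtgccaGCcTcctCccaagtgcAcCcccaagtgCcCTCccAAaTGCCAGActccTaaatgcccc

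Lce1g and Lce1h were identical over the first 59 coding bases and differed at 1 of 90, whereas Lce1f differed from Lce1g at 22 and Lce1l at 21, counted without gaps. Over the whole coding sequence, aligned with gaps, 87.2% of positions were identical between Lce1g and Lce1h, 90.5% between Lce1g and Lce1f, and 77.1% between Lce1g and Lce1l.

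The 250 bases before the annotated start of Lce1g, Lce1h and Lce1i are shown because these 3 neighbours had similar upstream sequence and very different levels. They lie at chr3:92556261-92556510, chr3:92568988-92569237 and chr3:92582822-92583071 and are printed 5' to 3' on the strand of the gene. Capitals mark the letters ATAAAA.
Lce1g: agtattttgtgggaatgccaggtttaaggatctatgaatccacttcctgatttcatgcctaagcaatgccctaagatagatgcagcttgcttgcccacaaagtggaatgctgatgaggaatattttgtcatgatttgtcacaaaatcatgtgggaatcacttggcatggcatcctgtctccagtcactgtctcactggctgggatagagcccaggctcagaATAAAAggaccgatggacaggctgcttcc
Lce1h: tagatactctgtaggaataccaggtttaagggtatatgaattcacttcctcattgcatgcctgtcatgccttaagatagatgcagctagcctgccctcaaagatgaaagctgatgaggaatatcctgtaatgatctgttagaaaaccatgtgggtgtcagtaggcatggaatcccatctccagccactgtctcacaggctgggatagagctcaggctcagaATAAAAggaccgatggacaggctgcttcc
Lce1i: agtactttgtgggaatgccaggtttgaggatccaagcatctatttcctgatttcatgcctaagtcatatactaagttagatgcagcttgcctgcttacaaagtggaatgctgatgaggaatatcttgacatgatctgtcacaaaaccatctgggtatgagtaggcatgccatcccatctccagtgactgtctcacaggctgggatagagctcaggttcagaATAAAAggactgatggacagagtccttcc

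The last 39 of these bases were identical in Lce1g and Lce1h, but only the last 5 in Lce1g and Lce1i. The aligned identity was 84.5% between Lce1g and Lce1h, 85.6% between Lce1g and Lce1i, and 51.5% between Lce1g and Lce1l. In all 3 the ATAAAA lay 29 to 24 bases before the start. The same 6 letters, searched on both strands, stood before 11 of 12 Lce1 genes and before 16.5% of 21693 protein-coding genes. ATAAAA was picked after these upstream sequences were seen, and the 12 genes are closely related, so nothing is read from this difference. A p53 half-site consensus stood before 0 of 12 Lce1 genes and before 6.30% of the genes searched. With so low a share among the genes searched, its absence before 12 closely related genes is not informative. Only the bases before each start were searched, so sites within or farther from the genes would be missed. Control of the Lce1 genes by p53 was not tested.

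Late cornified envelope genes were present almost only in the WT library. Of the 20 genes, 15 were above 0 in the WT library, and 14 of these 15 were listed at 0 in the Kai1-/- library. Over all symbols above 0 in WT, 10.2% were listed at 0 in the Kai1-/- library, but the rule used this contrast and nothing is read from the difference. No Lce gene had a higher value in the Kai1-/- library.

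Lce1g measured 90.2 RPKM in WT PCs against 0.728 in Kai1-/- PCs, about 1908 and 14.1 reads. It was 124-fold lower in Kai1-/- PCs (73.7 to 227). By log2 ratio with 0.1 RPKM added, 3 of the 10068 symbols averaging 1 RPKM or more ranked below it, Lce1h among them. Lce1h stood at 15.8 RPKM and about 235 reads in WT PCs. It had a listed 0 in Kai1-/- PCs, where 3 reads would have given 0.221 RPKM. Lce1g was thus still detected in Kai1-/- PCs, and Lce1h was not detectable there at this depth.

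Together Lce1g and Lce1h made up 96.3% of the summed RPKM of all Lce genes in the WT library. The next highest was Lce1l with an RPKM of 1.95, about 27.0 reads, followed by Lce1f with 0.825 and about 12.8 reads. Lce3a (0.390), Lce1a2 (0.334) and Lce3c (0.280) rested on about 3.99, 5.05 and 3.02 reads. All 5 were listed at 0 in the Kai1-/- library.

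Lce1i, with 85.6% upstream identity to Lce1g against 84.5% for Lce1h, stood at 0.00883 RPKM in WT PCs. That value is about 0.138 of a read. In all, 5 of the 14 Lce genes with an annotated transcript and a WT value above 0 had less than 0.5 of a read, as did 3.31% of the single-transcript genes above 0 in that library. Values this low are less than any single read counted whole for 1 gene would give, and how such values arose was not tested.

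To see how much sequence these genes have in common, each transcript was cut into all its windows of 50 bases. Of the windows of Lce1g, 18.4% stood unchanged in the transcript of another gene, as did 18.3% for Lce1h and 9.18% for Lce1l, and the median over 12 Lce1 genes was 20.1%. For the 9 desmosomal plaque, plakin and Perp genes the median was 0.0%. With windows of 36 bases the shares were 31.3% for Lce1g and 33.8% for Lce1h, and with 75 bases they were 4.94% and 5.22%. The read length is not known, and the aligner also allowed 2 mismatches per read.

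**Figure D1:**
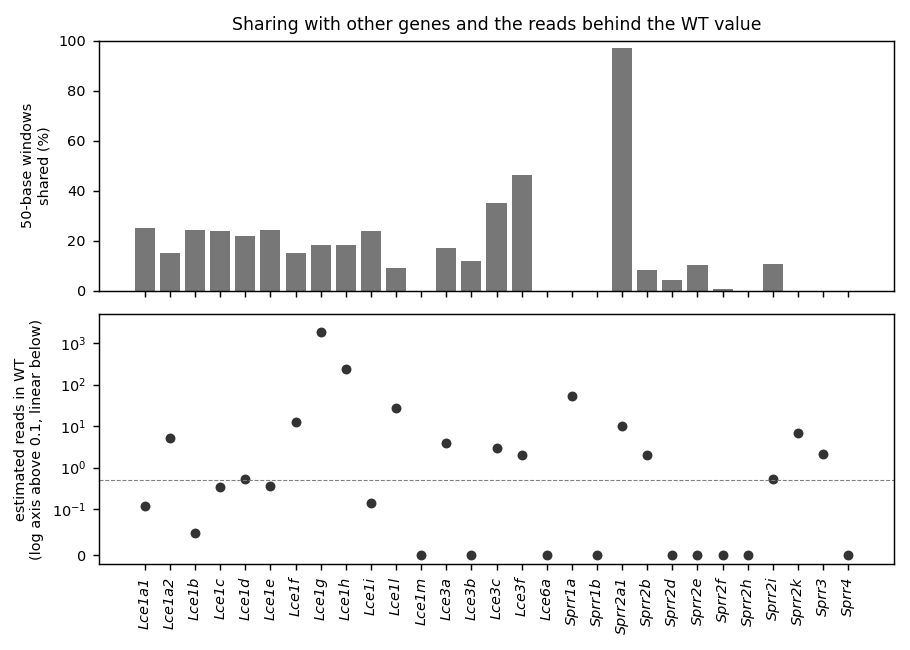
Share of 50-base windows of each Lce and Sprr transcript that stand in another gene (bars, %, upper panel) and estimated reads behind the value of the same gene in the WT library (points, logarithmic above 0.1 and linear below, lower panel, dashed line at 0.5 of a read). Lce1g and Lce1h hold about 1908 and 235 reads with 18.4% and 18.3% of windows shared. Among Lce1 genes with a value above 0, 5 lie below 0.5 of a read.

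Other genes of the chromosome 3 interval, which runs from Sprr2a1 to Lce1m over 803226 bases and holds 34 genes of the table, were also looked up. Crct1, a cysteine-rich gene between the Lce genes, was the most abundant, at 109 RPKM in WT PCs against 55.0 in Kai1-/- PCs. It was 1.97-fold lower (1.81 to 2.15). Kprp, a proline-rich keratinocyte protein, stood at 2.96 and 0.444 RPKM and was 6.68-fold lower (4.53 to 10.2). Ivl, which encodes involucrin, an early envelope protein, stood at 0.960 RPKM in WT PCs and was listed at 0 in Kai1-/- PCs. Within 1000000 bases on either side, 4 further genes averaged 0.1 RPKM or more. Tchh, which encodes trichohyalin of the hair follicle, stood at 0.816 RPKM and about 132 reads in WT PCs, and Lor, which encodes the envelope protein loricrin, at 0.492 RPKM and about 22.5 reads. Both were listed at 0 in Kai1-/- PCs. S100a10 and S100a11, calcium-binding proteins of many cell types, were abundant and nearly level, at 1584 and 1694 RPKM and at 7286 and 6809 RPKM.

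Over the list of 20 other envelope proteins and crosslinking enzymes, 19 were in the table and 9 averaged 0.1 RPKM or more over both libraries. Of these 9, 6 were more than 2-fold lower in Kai1-/- PCs and 0 more than 2-fold higher, against 12.6% and 8.92% of all symbols at that level. Of the 4 averaging 1 RPKM or more, 2 were lower and 0 higher, against 7.81% and 7.98%. Cdsn, which encodes corneodesmosin, an adhesive protein of the outer skin, measured 63.1 RPKM in WT PCs against 6.18 in Kai1-/- PCs, a 10.2-fold difference (9.22 to 11.3). Cnfn, which encodes cornifelin, stood at 1.55 and 0.343 RPKM, and Cst6, which encodes the protease inhibitor cystatin M/E, at 4.19 and 2.22 RPKM. Casp14, a caspase of cornification, stood at 0.460 and 0.738 RPKM. The crosslinking enzymes Tgm1 and Tgm3 stood at 0.106 and 0.00863 RPKM in WT PCs and at 0 in Kai1-/- PCs.

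The small proline-rich genes did not follow the Lce genes. Sprr1a, which is also induced in stressed cells outside the skin, measured 3.05 RPKM in WT PCs against 3.38 in Kai1-/- PCs, a ratio of 1.11 (0.746 to 1.65) that counting error alone spans. Sprr2b was at 0.136 and 2.31 RPKM, about 1.99 and 31.0 reads, and was 17.0-fold higher in Kai1-/- PCs (4.32 to 148). Sprr2a1 was at 0.106 and 1.16 RPKM. Its annotated transcript shared 97.1% of its windows with Sprr2a2, so that these values may belong to any of the near-identical Sprr2a copies.

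Sprr2k went the other way, from 0.542 RPKM and about 6.98 reads in WT PCs to a listed 0. Of the other 8 Sprr genes, 6 were listed at 0 in both libraries. Sprr3 and Sprr2i stood at 0.115 and 0.0433 RPKM in WT PCs and at 0 in Kai1-/- PCs. The family thus held members higher in either library, at levels below those of Lce1g and Lce1h in WT PCs.

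The upstream sequences of Sprr2b and Sprr2k are shown because these genes differed in opposite directions. They lie at chr3:92120377-92120626 and chr3:92236254-92236503 on the plus strand, and capitals mark ATAAAA and TATAAA near the start and TGANTCA, the letters bound by AP-1 factors, farther upstream.
Sprr2b: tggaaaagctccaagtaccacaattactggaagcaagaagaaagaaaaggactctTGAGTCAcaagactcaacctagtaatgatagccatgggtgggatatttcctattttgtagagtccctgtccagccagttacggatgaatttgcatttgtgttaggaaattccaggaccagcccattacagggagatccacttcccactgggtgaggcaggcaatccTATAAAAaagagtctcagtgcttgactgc
Sprr2k: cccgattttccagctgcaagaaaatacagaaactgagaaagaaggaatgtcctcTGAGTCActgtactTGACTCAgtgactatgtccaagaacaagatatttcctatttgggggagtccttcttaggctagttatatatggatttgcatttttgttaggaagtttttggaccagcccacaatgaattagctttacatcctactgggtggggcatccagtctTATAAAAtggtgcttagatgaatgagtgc

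Both had TATAAA 29 to 24 bases before the start, overlapping ATAAAA. Sprr2b had TGANTCA once and Sprr2k had it at 196 to 190 and at 182 to 176 bases before the start. TATAAA stood before 7 of 8 Sprr2 genes and 12.4% of the 21693 protein-coding genes searched. TGANTCA stood before 7 of 8 Sprr2 genes, 0 of 12 Lce1 genes and 5.92% of the genes searched. The 1 Sprr2 gene without either was Sprr2a1, whose annotated transcript has 3541 bases against 699 for Sprr2b. Any link between these letters and the levels was not tested.

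**Figure D2:**
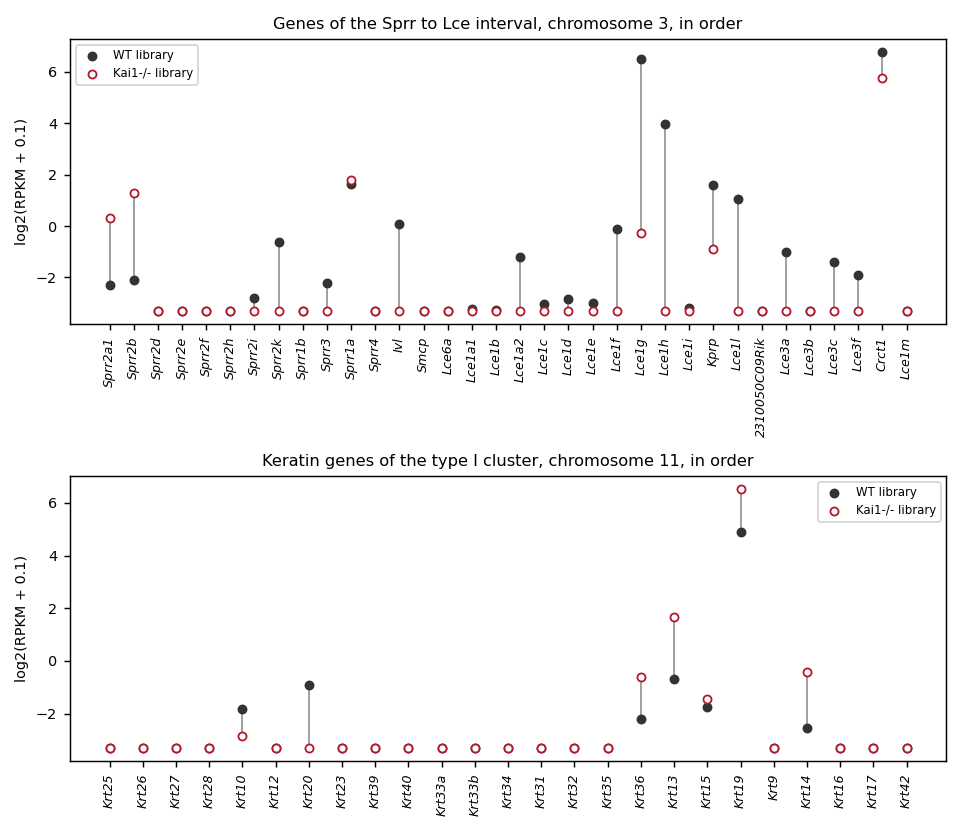
Levels in log2(RPKM + 0.1) of the genes of the Sprr to Lce interval on chromosome 3 (upper panel) and of the keratins of the type I cluster on chromosome 11 (lower panel), in chromosomal order, in the WT library (filled) and the Kai1-/- library (open). Points at the bottom are values of 0 RPKM. Lce1g, at 90.2 and 0.728 RPKM, and Krt19, at 29.3 and 91.3 RPKM, stand out in opposite directions.

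Keratins were mostly silent, with 33 of 49 listed at 0 in both libraries, and Krt19 was the exception. Krt19, a small type I keratin of simple epithelia and mesothelium, measured 29.3 RPKM in WT PCs against 91.3 in Kai1-/- PCs, about 1170 and 3327 reads. It was 3.11-fold higher in Kai1-/- PCs (2.91 to 3.33), and 1.95% of the 10068 symbols had a higher log2 ratio. None of its windows was shared with another gene. Krt19 made up 88.0% of the summed keratin RPKM in WT PCs and 93.1% in Kai1-/- PCs.

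Its usual type II partners were low. Krt8 stood at 0.0211 RPKM in WT PCs and 0 in Kai1-/- PCs, about 0.979 of a read, and Krt18, the type I keratin that normally accompanies Krt8, at 0.0282 and 0. Krt7 stood at 0.488 and 0.270 RPKM, 1.80-fold lower in Kai1-/- PCs (1.12 to 2.96). Krt80 was the most abundant type II keratin, with 1.67 and 1.59 RPKM, a ratio of 0.952 (0.763 to 1.19). Summed over all members in the table, type I keratins exceeded type II keratins 13.0-fold in WT PCs and 45.6-fold in Kai1-/- PCs.

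From Krt36 to Krt17 around Krt19 on chromosome 11 (100002124 to 100009979), the 4 other keratin genes above 0 had higher values in Kai1-/- PCs. The ends of this stretch were set after the values were seen, so these 4 are a description only. Over all 27 type I keratins, 5 had a higher and 3 a lower value in Kai1-/- PCs. Of all 20211 symbols, 7145 had a higher and 7643 a lower value there. Krt13, a keratin of moist stratified epithelia 19243 bases away, measured 0.516 RPKM in WT PCs against 3.10 in Kai1-/- PCs, a ratio of 6.00 (3.78 to 9.96). Krt36, a hair-type keratin next to Krt13, stood at 0.115 and 0.563 RPKM, about 4.92 and 21.9 reads. Krt14, a basal keratin of the skin, stood at 0.0695 and 0.641 RPKM, about 3.02 and 25.4 reads. Krt15, which lies between Krt13 and Krt19, stood at 0.200 and 0.271 RPKM, a ratio of 1.35 (0.503 to 3.76), an interval that includes 1. The 3 neighbours Krt9, Krt16 and Krt17 were listed at 0 in both libraries, so only part of the cluster carried a signal.

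Elsewhere in the type I cluster 2 keratins had lower values in Kai1-/- PCs. Krt20, a keratin of the gut and bladder lining, stood at 0.430 RPKM in WT PCs, about 21.5 reads, and was listed at 0 in Kai1-/- PCs. Krt10, the main type I keratin of upper skin layers, stood at 0.178 and 0.0396 RPKM, about 9.79 and 1.98 reads, a ratio of 0.222 (0.0232 to 1.05), an interval that includes 1. Its partner Krt1 and the basal keratin Krt5 were listed at 0 in both libraries.

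The other filament proteins of the cell were looked up for comparison. Vim, the filament protein of mesenchymal cells, measured 1013 RPKM in WT PCs against 789 in Kai1-/- PCs. Nes, which encodes nestin, was at 2.64 and 9.87 RPKM, a ratio of 3.74 (3.36 to 4.16), and Des, the muscle filament protein desmin, at 1.23 and 0.250. The lamin genes Lmnb2 and Lmnb1 stood at 8.35 and 25.7 and at 16.4 and 32.3 RPKM, and Lmna at 617 and 849. Sync, which encodes syncoilin, was at 2.17 and 0.693 RPKM. Of the 16 genes of this list, 7 averaged 1 RPKM or more, with 2 more than 2-fold lower, 2 more than 2-fold higher and 3 within 2-fold. Over all symbols, 7.81% were lower and 7.98% higher. Sync was among the lower genes of the 7, whereas Des averaged 0.740 RPKM and was not among the 7. Of the 52 hair keratin-associated protein genes, 51 were listed at 0 in both libraries.

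Ppl, which encodes periplakin, the plakin that links the envelope to keratin filaments, showed the largest difference upward among the members. It measured 0.616 RPKM in WT PCs against 18.3 in Kai1-/- PCs, about 108 and 2923 reads over a single annotated transcript of 6277 bases on chromosome 16 (5086384 to 5132574). It was 29.6-fold higher in Kai1-/- PCs (24.5 to 36.2), and 4 of the 10068 symbols had a higher log2 ratio. Its partner Evpl, which encodes envoplakin, stood at 0.125 and 0.0664 RPKM, about 22.3 and 10.8 reads. Ppl was therefore abundant in Kai1-/- PCs without its usual partner at a comparable level.

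The other plakins were nearly level. Plec, which encodes plectin, the general filament linker, stood at 38.6 and 32.7 RPKM, a ratio of 0.847 (0.828 to 0.867). Dst stood at 6.54 and 6.68 RPKM and Macf1 at 3.15 and 3.52. All 3 were within 2-fold.

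**Figure D3:**
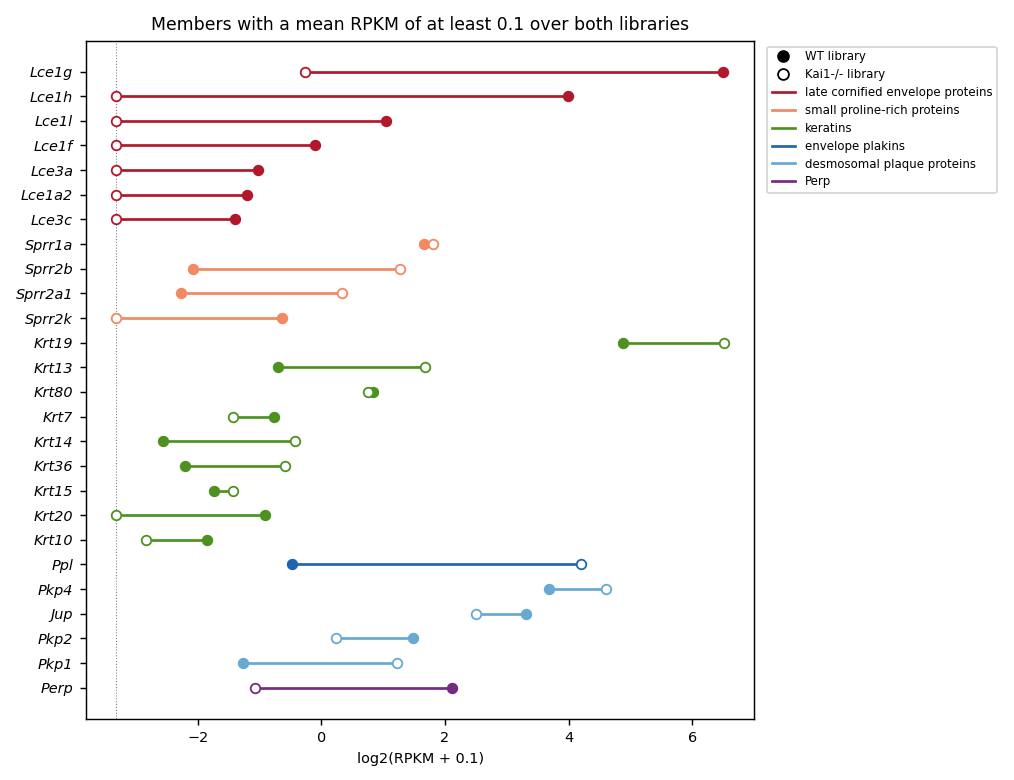
Level in log2(RPKM + 0.1) of the 26 members averaging 0.1 RPKM or more over both libraries, with WT filled and Kai1-/- open, coloured by role, with a dotted line at 0 RPKM. All 7 Lce genes shown are lower in the Kai1-/- library, and Ppl, at 0.616 and 18.3 RPKM, has the longest line among genes higher in Kai1-/- PCs.

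Desmosomal plaque genes split. Jup, which encodes plakoglobin, a plaque protein shared with adherens junctions, measured 9.76 RPKM in WT PCs against 5.57 in Kai1-/- PCs, a ratio of 0.571 (0.507 to 0.641). Pkp4, a plakophilin relative found mainly at adherens junctions, stood at 12.7 and 24.3 RPKM, a ratio of 1.92 (1.81 to 2.04). Both were well expressed and both differences were less than 2-fold.

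The plakophilins proper were lower in level. Pkp2, the plakophilin of heart and simple epithelia, stood at 2.70 RPKM in WT PCs and 1.07 in Kai1-/- PCs, 2.52-fold lower (1.93 to 3.31). Pkp1, the plakophilin of upper skin layers, stood at 0.315 and 2.24 RPKM, about 40.6 and 264 reads, and was 7.12-fold higher (5.10 to 10.2). Pkp3 stood at 0.0640 RPKM in WT PCs and was listed at 0 in Kai1-/- PCs. Pkp1 and Pkp2 thus differed in opposite directions.

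The core genes of the desmosome were near 0 in both libraries. Dsp, which encodes desmoplakin, the obligate link from plaque to keratin, stood at 0.0647 and 0.0756 RPKM. Of the 9 desmosomal cadherin genes (Dsc1 to Dsc3 and the Dsg genes), 0 averaged 0.1 RPKM or more, and their summed RPKM was 0.138 in WT PCs and 1.61e-05 in Kai1-/- PCs.

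The armadillo and catenin genes of the adherens junction, which share partners with Jup and Pkp4, were expressed at a higher level. Ctnnb1, which encodes beta-catenin, stood at 87.8 and 96.0 RPKM, Ctnna1 at 65.0 and 53.1, and Ctnnd1, which encodes p120 catenin, at 24.5 and 20.7. Arvcf stood at 5.41 and 6.38. Of the 5 genes averaging 1 RPKM or more, 4 were within 2-fold and Ctnnd2 was lower, at 2.16 and 0.579 RPKM.

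Perp encodes a membrane protein of desmosomes that p53 and p63 induce, and it lies on chromosome 10 (18564877 to 18576879). It measured 4.23 RPKM in WT PCs against 0.375 in Kai1-/- PCs, about 209 and 16.9 reads. It was 11.3-fold lower in Kai1-/- PCs (6.88 to 19.8), and 0.745% of the 10068 symbols had a lower log2 ratio. Perp therefore differed in the direction of the Lce genes and of Cdsn.

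Over all 90 members, 13 averaged 1 RPKM or more. Of these 13, 4 (Lce1g, Lce1h, Perp, Pkp2) were more than 2-fold lower in Kai1-/- PCs, against 7.81% of all 10068 symbols, and 5 (Ppl, Sprr2b, Pkp1, Krt13, Krt19) more than 2-fold higher, against 7.98%. The 4 others (Krt80, Sprr1a, Jup, Pkp4) were within 2-fold. The median log2 ratio of the 13 was 0.14, beside 0.08 over all symbols. Scaled to Gapdh, 1815 of all symbols were more than 2-fold lower and 249 higher, in place of 786 and 803, and 5 members were lower and 3 higher. Since members were chosen for their differences, these shares describe the choice.

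With the limit at a mean RPKM of 0.1, 26 members remained, of which 11 were more than 2-fold lower, against 12.6% of 12734 symbols, and 8 more than 2-fold higher, against 8.92%. The median log2 ratio was -0.73, beside 0.04 over all symbols. The remaining 64 members lay below this limit. Of these, 44 were listed at 0 in both libraries and 20 had values up to 0.165 RPKM. A single member, Krt76, was above 0 in Kai1-/- PCs alone, at 0.0886 RPKM, as were 2.01% of all symbols above 0 in that library.

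**Figure D4:**
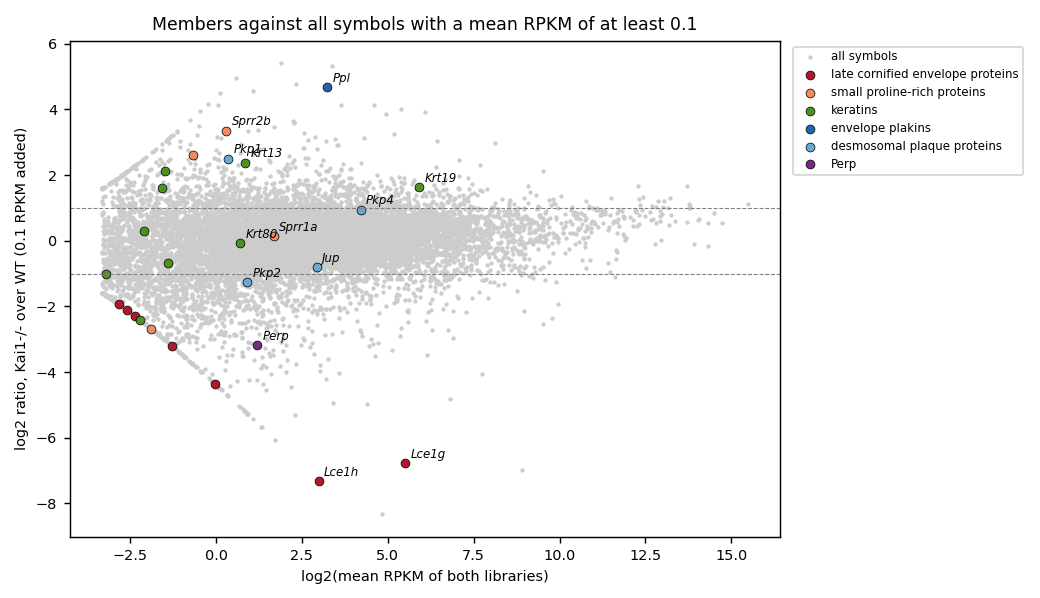
Log2 ratio of Kai1-/- to WT, with 0.1 RPKM added to each value, against log2 of the mean RPKM for all 12734 symbols averaging 0.1 RPKM or more (grey) and for 26 members (coloured by role). Dashed lines mark a 2-fold difference. Lce1g and Lce1h lie at -6.77 and -7.32 and Ppl at 4.68, with Krt80 and Sprr1a near 0. The position of Lce1h depends on the 0.1 RPKM added, because its Kai1-/- value is 0.

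Markers of other cell types were measured in the same libraries. Of 20 epithelial regulators and surface markers, 3 averaged 1 RPKM or more, and the summed RPKM was 8.25 in WT PCs and 5.69 in Kai1-/- PCs. Trp63, the master regulator of stratified epithelia, stood at 0.0892 RPKM and 0, Cdh1, which encodes E-cadherin, at 0.593 and 0.391, and Epcam and Grhl2 at 0 in both. Cdh3 was at 2.63 and 0.568, Sfn at 2.44 and 1.25, and Esrp2 at 1.42 and 3.21. Of the 20 markers, 6 were listed at 0 in both libraries, 13 were above 0 in WT PCs and 8 in Kai1-/- PCs.

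Mesothelium, the lining of body cavities, is another source of Krt19. Of the 8 mesothelial markers, 7 were in the table, and they summed to 123 RPKM in WT PCs against 73.6 in Kai1-/- PCs. Upk1b stood at 69.1 and 30.5 RPKM, Nkain4 at 51.8 and 39.5, and Upk3b at 0.975 and 2.81, while Msln stood at 0.670 and 0.508 and Wt1 at 0 and 0.0259. Of the 8 endothelial markers, 7 were above 0 in WT PCs, where they summed to 1.29 RPKM and reached at most 0.413 RPKM. Vwf rested on about 0.973 of a read. In Kai1-/- PCs 0 were above 0, and of all symbols above 0 in WT, 10.2% were listed at 0 there. The 8 macrophage markers summed to 16.4 and 4.23 RPKM, led by Csf1r at 11.7 and 2.66. The part of other cell types in the levels of Lce1g, Perp, Krt19 and Ppl was not tested, and in bulk RNA fewer cells of a type and less RNA per cell cannot be told apart.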

How the data were processed

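RNA of aortic PCs was sequenced in 1 WT and 1 Kai1-/- library. The authors used TopHat 2.0.9 and Bowtie on mm9, with a segment length of 21 and 2 mismatches per read, and deposited 1 RPKM value per RefSeq gene and library, and the processing notes name Cufflinks. Read length, strand and the treatment of reads with several matches were not given in the sources used here.

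From the 20462 rows of each table, 38 had no symbol and were dropped, and symbols on several rows were averaged. The log2 ratio was computed after adding 0.1 RPKM, which understates changes of low genes. No test was possible, and a 2-fold difference at a mean of 1 or 0.1 RPKM and above served as limit. Named members were all those averaging 1 RPKM or more and those of at least 0.1 past 2-fold; Lce1i, Krt1, Krt5, Krt7, Krt8, Krt9, Krt10, Krt15, Krt16, Krt17, Krt18, Krt76, Evpl, Dsp, Pkp3, Sprr2i and Sprr3 were named after their values were seen, as were Myh11, Kcnj8, Tchh, Lor, Cnfn, Ivl, Casp14, Tgm1, Tgm3, S100a10, S100a11, Des, Trp63, Cdh1, Epcam, Grhl2, Rgs5, Abcc9, Msln and Wt1. From other lists, genes averaging 1 RPKM or more were eligible, at most 6 per list. Members and lists were chosen with earlier results of these data known.

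Mapped reads were estimated from the steps of low RPKM values in 5844 genes with a single GENCODE M1 transcript over 800 bases. With a fragment length of 190 bases, 82.9% of 351 low values (WT) and 79.2% of 178 (Kai1-/-) fell within 0.15 of whole reads. Depth and fragment length were chosen to make this share largest, so it is no separate check of them. Of the 90 members, 85 had a transcript there. Exact Poisson and conditional binomial intervals (95%) used these reads and the longest transcript. Sequences came from NCBIM37. The motif TATAAA, the AP-1 motif TGANTCA, the GC box GGGCGG and the p53 half-site were searched on both strands, 250 bases before each start. Genes of chromosomes 18 and Y were left out of this search. ATAAAA was added after the promoters were seen. Python 3.11.15, numpy 2.4.6, pandas 2.3.3, scipy 1.17.1 and matplotlib 3.10.9 were used.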

Additional observations from a re-analysis of the deposited data

How the results depend on the processing

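Alternatives were a pseudocount of 1 or 0.01 RPKM, 3 scalings, repeated symbols summed and other limits on mean RPKM. Recomputed log2 ratios were set against an interval from the outer Poisson bounds of both libraries, which differs from the interval given with each ratio. Of 78 such log2 ratios of members averaging 1 RPKM or more, 66 stayed within it and 12 moved further. Only the log2 ratio of Sprr1a changed sign, to -0.34 under scaling to Gapdh, where the median of all symbols was -0.42. The 2-fold line was crossed by Jup under scaling to Gapdh (-1.29) and by Pkp2 with 1 RPKM added (-0.84). The log2 ratio of Lce1h, listed at 0 in Kai1-/- PCs, was -4.07 with 1 RPKM added and -10.63 with 0.01. That of Lce1g was -5.72 and -6.93, so the order of the 2 genes depended on the added value.

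Of 30 recomputed counts, 22 stayed within 1.5 times the main count. Without a limit on mean RPKM, 14 members were more than 2-fold lower and 9 higher, and at a mean of at least 5, 2 were lower and 2 higher. Scaled to Gapdh, 3 members averaging 1 RPKM or more were higher and 5 lower, and Sprr2b and Pkp1 then had a mean below that limit. The median of the members was then -0.53. At a mean of at least 0.1 with 1 RPKM added, 4 were lower and 5 higher. Without members that share at least 10% of their windows, an alternative chosen after seeing the data, 2 were lower. The median share of windows found in another gene was 33.5% with windows of 36 bases and 6.30% with 75. No paired analysis was possible because there is a single library per genotype. Depth limits members such as Lce3c, Lce3a and Sprr2b in WT PCs, which rest on a few reads.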
